A study of Homo sapiens with 16 samples.

Results

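The 44 genes analysed here belong to the nucleolar pathway that makes ribosomes, and their transcripts were followed in the established human T cell line Jurkat E6-1 by RNA-seq of 8 libraries from peroxide-treated cells and 8 libraries from untreated cells. The 44 genes encode subunits and factors of RNA polymerase I (Pol I), proteins of the small nucleolar ribonucleoproteins (snoRNPs), abundant nucleolar proteins, and assembly factors of the small and large ribosomal subunits. They were taken by gene symbol, out of 60662 gene identifiers in the count tables, and all 44 were among the 14092 genes with enough reads to test. The peroxide libraries came from wild-type cells that were moved into phosphate-buffered saline (PBS), given 10 µM hydrogen peroxide and harvested at 4 h. The control libraries came from untreated wild-type cells harvested at 0 h. Time, the move into saline and peroxide therefore differ together between the groups and cannot be told apart, and a saline group at 4 h was not analysed here. The names of the deposited tables place 4 libraries of each group in batch 1 and 4 in batch 2, and the meaning of a batch is not explained there. The labels call the libraries biological replicates but do not say that they were separate cultures, so p-values measure the spread between these libraries, which may be partly technical.

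In the nucleolus, Pol I copies the ribosomal RNA genes into a long precursor, which is cut, folded and chemically modified while ribosomal proteins bind to it. Box C/D snoRNPs guide methylation and box H/ACA snoRNPs guide pseudouridylation of the precursor, and the small subunit processome and the large subunit assembly factors shape the particles before they leave for the cytoplasm. Proliferating T cells invest heavily in this pathway, and MYC is a known activator of many of its genes. The tables hold messenger RNA levels of the factors and do not measure the ribosomal RNA they produce. Of the 5.8S ribosomal RNA entries, the 3 mature genes had 0 reads in all 16 libraries.

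The 44 genes did not move as a block. After peroxide, 14 of them (31.8%) were higher and 8 (18.2%) were lower at an adjusted p under 0.05 by edgeR's quasi-likelihood test in a model of batch and group, and 22 passed in neither direction. Among all 14092 genes tested, 24.1% were higher and 24.3% were lower by the same rule, so the members' shares were of the same order as those of all genes. Their median log2 fold change was 0.04, against -0.01 over all genes tested. Scaling by total counts in place of TMM factors gave 13 members higher and 11 lower, and 2822 genes higher and 4375 lower over all genes, against 3391 higher and 3419 lower with TMM. The largest rise was that of TAF1D, which encodes a subunit of the Pol I initiation factor SL1, with a fold of 2.21. The largest fall was that of POLR1B, which encodes the second-largest subunit of Pol I itself, with a fold of 0.662. Both genes belong to the same transcription machinery, and the plot of fold changes by role shows that other roles also held genes moving apart.

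**Figure D1:**
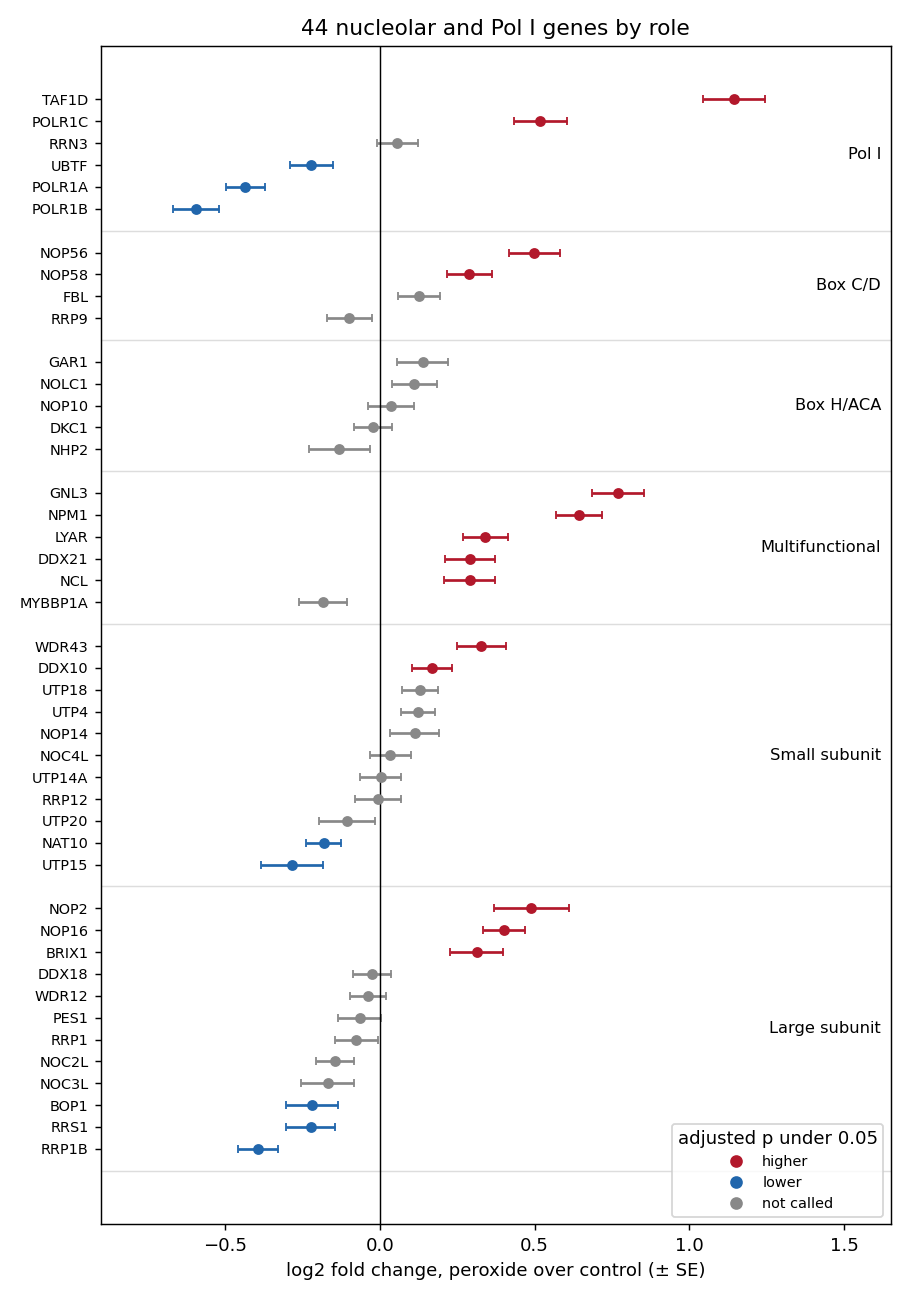
Log2 fold change, peroxide over control, with its standard error for each of the 44 genes, grouped by role and coloured by call (edgeR, 8 libraries per group). TAF1D stands at 1.15 and POLR1B at -0.59 within the same role, and the 5 box H/ACA genes lie near 0.

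Each library held between 5556553 and 15720881 reads in genes, and the 44 genes together took 0.759% to 1.02% of them in peroxide libraries and 0.673% to 1.04% in control libraries. T cell markers were present, with 11 of 11 at a mean of 1 CPM (read counts scaled to library size) or more and a summed level of 3206 to 4251 CPM in peroxide libraries and 3215 to 4239 CPM in control libraries. Of 5 myeloid markers, CD14 and ITGAM reached 1 CPM, and the 5 summed to 4.02 to 13.3 CPM in peroxide libraries and 0.125 to 0.943 CPM in control libraries, with no marker at 0 throughout. Their part in the results below was not tested. Of 5 B cell markers only CD79A reached 1 CPM, with sums of 31.5 to 55.7 CPM in peroxide libraries and 29.9 to 50.5 CPM in control libraries. Of 5 epithelial and 3 erythroid markers none did, and EPCAM, CDH1 and HBB had no reads. Reads not aligned uniquely made up 33.3% to 39.8% of counted reads in peroxide libraries and 30.2% to 47.2% in control libraries of batch 1, with medians of 35.2% in peroxide and 31.9% in control libraries. In batch 2 they made up 35.7% to 45.8% in peroxide libraries and 31.8% to 33.7% in control libraries, with no overlap. This share thus moved with the group, and its part in the results was not tested. The counts of called members stayed at 14 higher and 8 lower without peroxide library 5 and control library 1, which had the highest shares. The members behind these counts were not all the same. DDX10 lost its call at a log2 fold change of 0.15 (edgeR adjusted p = 0.0814), and UTP18 gained one at 0.16 (edgeR adjusted p = 0.0364). In RNA from whole cultures, fewer cells expressing a gene and less RNA per cell cannot be told apart.

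A motif that did not enter the choice of the genes was looked for in their promoters. The E-box CACGTG, which reads the same on both strands and is the sequence that MYC with MAX is known to bind, was searched from 250 bases before to 50 bases after the outermost RefSeq start of each gene (GRCh38.p14). It was found in 14 of the 37 members with a listed promoter (37.8%), against 10.3% of the 10296 tested genes with one and 7.40% of all 27305 listed. The promoters of 4 genes that hold the motif and of 3 that lack it are shown from 150 bases before to 30 bases after the start, 5′ to 3′ on the gene's strand, in RefSeq's sequence, with CACGTG in capitals. FBL, UTP18, WDR43 and NAT10 are examples with a copy near the start, and TAF1D, POLR1B and POLR1A are the members with the largest rise and the largest falls. The choice does not compare genes with and without the motif.
FBL, chr19:39846350-39846529, minus strand: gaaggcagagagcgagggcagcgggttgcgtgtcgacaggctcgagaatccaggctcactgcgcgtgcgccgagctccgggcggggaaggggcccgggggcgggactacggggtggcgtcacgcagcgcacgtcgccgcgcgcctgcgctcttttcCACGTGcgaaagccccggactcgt
UTP18, chr17:51260396-51260575, plus strand: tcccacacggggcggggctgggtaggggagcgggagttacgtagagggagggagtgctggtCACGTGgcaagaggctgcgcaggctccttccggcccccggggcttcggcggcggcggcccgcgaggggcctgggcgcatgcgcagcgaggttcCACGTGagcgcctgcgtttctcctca
WDR43, chr2:28894517-28894696, plus strand: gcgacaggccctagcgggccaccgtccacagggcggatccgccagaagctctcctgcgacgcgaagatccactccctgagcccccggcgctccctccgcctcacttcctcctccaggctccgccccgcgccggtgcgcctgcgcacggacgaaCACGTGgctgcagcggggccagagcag
NAT10, chr11:34105479-34105658, plus strand: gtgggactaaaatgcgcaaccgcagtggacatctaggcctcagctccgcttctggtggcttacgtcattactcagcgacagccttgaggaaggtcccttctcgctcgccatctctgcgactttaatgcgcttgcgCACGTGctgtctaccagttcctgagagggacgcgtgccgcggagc
TAF1D, chr11:93741466-93741645, minus strand: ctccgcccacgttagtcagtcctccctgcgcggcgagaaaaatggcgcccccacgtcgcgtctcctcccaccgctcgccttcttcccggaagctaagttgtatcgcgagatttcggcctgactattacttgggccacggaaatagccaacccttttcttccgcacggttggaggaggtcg
POLR1B, chr2:112541886-112542065, plus strand: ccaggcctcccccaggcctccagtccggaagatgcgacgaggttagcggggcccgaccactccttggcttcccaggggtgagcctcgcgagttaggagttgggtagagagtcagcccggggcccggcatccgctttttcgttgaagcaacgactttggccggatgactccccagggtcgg
POLR1A, chr2:86105857-86106036, minus strand: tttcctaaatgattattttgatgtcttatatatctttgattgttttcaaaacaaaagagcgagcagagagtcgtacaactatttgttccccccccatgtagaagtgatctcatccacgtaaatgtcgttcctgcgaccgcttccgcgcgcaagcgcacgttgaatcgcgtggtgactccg
In FBL, in WDR43 and for the downstream copy in UTP18 the motif began within 7 bases after the start, and in NAT10 it began 15 bases before it. The upstream copy in UTP18 began 89 bases before the start. Over the members that hold it, the motif began from 241 bases before the start in UTP14A to base 36 after it in NOP2. Of the 14 members that hold it, 2 were higher, 1 was lower and 11 passed in neither direction, with a median log2 fold change of 0.02. Among the 23 that lack it, 11 were higher, 4 were lower and 8 passed in neither direction, with a median of 0.14. Among other tested genes, 21.6% of the 1048 with the motif were higher and 28.5% were lower, and 23.9% of those without it were higher and 24.6% lower. When every listed start of a gene was searched, GAR1, LYAR, GNL3 and DDX21 were added, which gave 18 members with the motif (48.6%, against 12.8% of tested genes), of which 5 were higher and 1 was lower, with a median of 0.12. The 19 without it at any start held 8 higher and 4 lower, with a median of 0.03, so the order of the medians turned with the choice of start. Promoters were not listed for NOP58, NOLC1, BOP1, RRP1B, RRP12, RRS1 and DDX18. A match describes the letters in the window and says nothing about whether a factor was bound there.

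Among the 6 Pol I genes, 3 fell (50%), 2 rose (33.3%) and 1 passed in neither direction. Over all genes tested, 24.3% fell and 24.1% rose, and counts this small do not set the role apart. POLR1A encodes the largest subunit, which with the product of POLR1B forms the catalytic centre. POLR1B (ENSG00000125630.16) had 37.1, 48.4 and 64.8 CPM as the lowest, median and highest of the peroxide libraries, against 58.5, 73.2 and 102 CPM in control libraries. POLR1A (ENSG00000068654.16) had 109, 145 and 169 CPM in peroxide libraries, against 149, 181 and 249.9 CPM in control libraries. The ranges overlapped over all 16 libraries for both genes, but within each batch every peroxide library lay below every control library. POLR1B fell by 0.59 ± 0.07 on the log2 scale (SE, 8 libraries per group, edgeR adjusted p = 1.09e-06). POLR1A fell by 0.43 ± 0.06 (edgeR adjusted p = 7.87e-06). UBTF, whose product coats the ribosomal DNA and opens its promoter, had 264, 292 and 343 CPM in peroxide libraries, against 276, 328 and 458 CPM in control libraries. These ranges overlapped widely, and UBTF fell by 0.22 ± 0.07 (edgeR adjusted p = 0.0121). Its fall was -0.39 ± 0.10 in batch 1 alone and -0.05 ± 0.07 in batch 2 alone, where it did not pass (edgeR adjusted p = 0.55), and the difference between batches did not pass either (edgeR adjusted p = 0.106).

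TAF1D (ENSG00000166012.17) was the single member for which every peroxide library lay above every control library, a pattern that 6.76% of all tested genes showed. No member had every peroxide library below every control library, which held for 4.49% of tested genes. TAF1D had 279, 320 and 511 CPM in peroxide libraries, against 145, 163 and 178 CPM in control libraries, and rose by 1.15 ± 0.10 on the log2 scale (edgeR adjusted p = 5.86e-09). POLR1C, which encodes an assembly subunit shared by Pol I and Pol III, had 38.0, 57.7 and 68.7 CPM in peroxide libraries, against 25.4, 34.9 and 57.4 CPM in control libraries. POLR1C rose by 0.52 ± 0.09 (edgeR adjusted p = 3.78e-05), with no overlap between the groups inside either batch. RRN3, whose product links the polymerase to the promoter-bound factors, had 68.5, 81.1 and 100.1 CPM in peroxide libraries, against 70.9, 77.4 and 86.8 CPM in control libraries. Its log2 fold change of 0.06 ± 0.07 did not pass (edgeR adjusted p = 0.515). The 4 RRN3 pseudogenes held 1367 reads in peroxide libraries and 1902 in control libraries, beside 5481 reads of the gene in peroxide libraries and 6378 in control libraries, so the level of RRN3 is uncertain. The plot of the Pol I genes by library shows how batch and group combine for each of the 6.

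**Figure D2:**
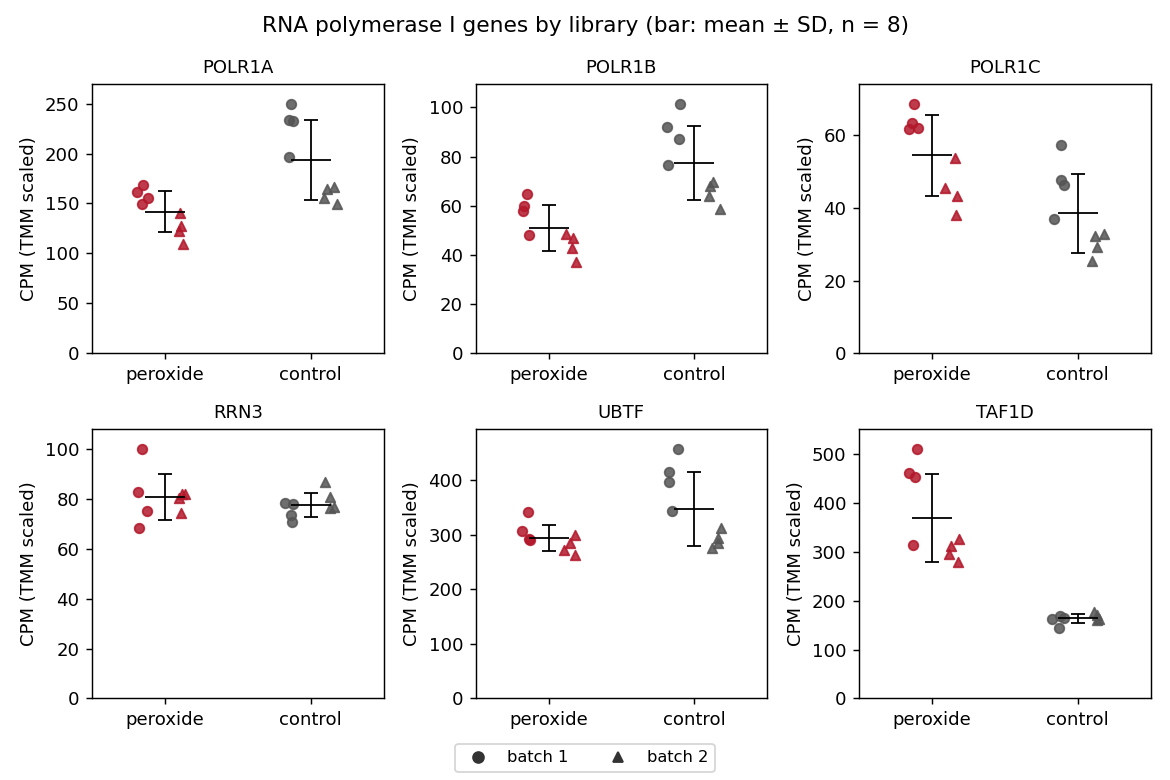
CPM with TMM scaling of the 6 Pol I genes in each library, peroxide left of control, with circles for batch 1, triangles for batch 2 and bars for the mean ± SD of 8 libraries. All 8 peroxide libraries of TAF1D, from 279 CPM up, lie above the 8 control libraries, which reach 178 CPM, while POLR1A and POLR1B separate inside each batch but overlap across the batches.

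A further 17 genes of Pol I transcription were listed from general knowledge, of which 3 were higher, 3 were lower and 11 passed in neither direction, with a median log2 fold change of 0.09. POLR1D, whose product pairs with that of POLR1C in Pol I and Pol III, had 165, 176 and 191 CPM in peroxide libraries, against 119, 140.3 and 157 CPM in control libraries. The groups did not overlap, and POLR1D rose by 0.36 ± 0.06 (edgeR adjusted p = 1.44e-05). Both genes of this shared pair were thus higher, while POLR3A, which encodes the largest subunit of Pol III, fell by 0.46 ± 0.06 (edgeR adjusted p = 7.24e-07) as the largest subunit gene of Pol I did. POLR3C, the gene of another subunit found in Pol III alone, was higher by 0.39 ± 0.08. Of 10 Pol III subunit genes listed, 1 was higher, 2 were lower and 7 passed in neither direction, with a median of -0.007. Among all genes tested, 24.1% were higher and 24.3% were lower. BAZ2A, which encodes the large subunit of a complex that silences ribosomal RNA genes, fell by 0.34 ± 0.06 (edgeR adjusted p = 2.57e-05). POLR2K, a subunit gene shared by all the nuclear polymerases, rose by 0.24 ± 0.06 (edgeR adjusted p = 0.0026).

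Of the box C/D genes 2 of 4 were called higher, and of the box H/ACA genes none of 5, against 24.1% of all genes tested. The counts are too small to set the 2 roles apart, and a difference between them was not tested. NOP56, which encodes a core scaffold protein of box C/D particles, had 325, 575 and 687 CPM in peroxide libraries, against 266, 367 and 578 CPM in control libraries. The groups overlapped across the batches and not within them, and NOP56 rose by 0.50 ± 0.08 (edgeR adjusted p = 3.77e-05). NOP58, whose product is the other scaffold protein, rose by 0.29 ± 0.07 (edgeR adjusted p = 0.0025), with 0.48 ± 0.09 in batch 1 alone and 0.09 ± 0.07 in batch 2 alone, where it did not pass (edgeR adjusted p = 0.327). FBL, the gene of the methyltransferase in the same particles, had 291, 333 and 379 CPM in peroxide libraries, against 242, 295 and 448 CPM in control libraries. Its log2 fold change of 0.13 ± 0.07 did not pass (edgeR adjusted p = 0.131), but it passed at 0.19 when control library 2, the highest of all, was left out (edgeR adjusted p = 0.00527), and at 0.23 in batch 2 alone. RRP9, whose product is specific to the U3 particle, had a log2 fold change of -0.10 ± 0.07.

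DKC1 encodes the pseudouridine synthase of the box H/ACA particles. It had 222, 245 and 303 CPM in peroxide libraries, against 221, 249 and 344 CPM in control libraries, and its log2 fold change of -0.02 ± 0.06 did not pass (edgeR adjusted p = 0.805). The genes of its partner proteins NHP2, GAR1 and NOP10 had log2 fold changes of -0.13, 0.14 and 0.04, and NOLC1, the gene of a chaperone of these particles, had 0.11. None of them passed. Exceptions under single settings were GAR1, which passed at 0.20 without peroxide library 2 (edgeR adjusted p = 0.0106), and NHP2, which passed at -0.36 in batch 1 alone (edgeR adjusted p = 0.0218). The 10 snoRNP assembly genes outside the 44 held 3 higher and 1 lower, among them PIH1D1 at 0.24, RUVBL1 at -0.22 and ZNHIT3 at 0.20. These counts are small, beside 24.1% higher and 24.3% lower over all genes tested.

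Of the 6 genes of abundant nucleolar proteins and regulators, 5 were higher and none was lower, the highest share of any role (83.3%). The counts are small, and the background share of genes higher was the 24.1% given above. GNL3 encodes nucleostemin, a GTPase of proliferating cells, and had 206, 326 and 438 CPM in peroxide libraries, against 127, 172 and 303 CPM in control libraries. NPM1 encodes nucleophosmin, a histone and ribosome chaperone, and had 379, 497 and 659 CPM in peroxide libraries, against 254, 317 and 455 CPM in control libraries. Both genes separated the groups within each batch, with a rise of 0.77 ± 0.08 for GNL3 (edgeR adjusted p = 1.32e-07) and of 0.64 ± 0.07 for NPM1 (edgeR adjusted p = 3.11e-07). NPM1 has 49 annotated pseudogenes, which held 926 reads in peroxide libraries and 739 in control libraries, beside 34517 reads of the gene in peroxide libraries and 25697 in control libraries, and reads that fit several copies may be lost from all of them.

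NCL encodes nucleolin, an RNA-binding protein and histone chaperone of the nucleolus, and had 1487, 1933 and 2479 CPM in peroxide libraries, against 1087, 1561 and 2515 CPM in control libraries. The groups overlapped inside both batches, and the rise of NCL by 0.29 ± 0.08 (edgeR adjusted p = 0.00553) did not pass in batch 1 alone, where it was 0.26 (edgeR adjusted p = 0.100). DDX21, the gene of an RNA helicase that acts on ribosomal RNA transcription and processing, rose by 0.29 ± 0.08 (edgeR adjusted p = 0.00512), but did not pass at 0.18 in batch 2 alone (edgeR adjusted p = 0.135). LYAR, which encodes a nucleolar zinc finger protein, rose by 0.34 ± 0.07 (edgeR adjusted p = 0.000609). MYBBP1A, the gene of a nucleolar protein that also binds MYB, had a log2 fold change of -0.18 ± 0.08 that did not pass (edgeR adjusted p = 0.0551). It passed at -0.20 to -0.22 when control library 3, 6 or 7 or peroxide library 5 or 8 was left out. MYBBP1A also passed at -0.24 with total counts, at -0.23 with no filter and at -0.33 in batch 1 alone. The levels of 3 of these genes are plotted by library beside those of 3 snoRNP genes.

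**Figure D3:**
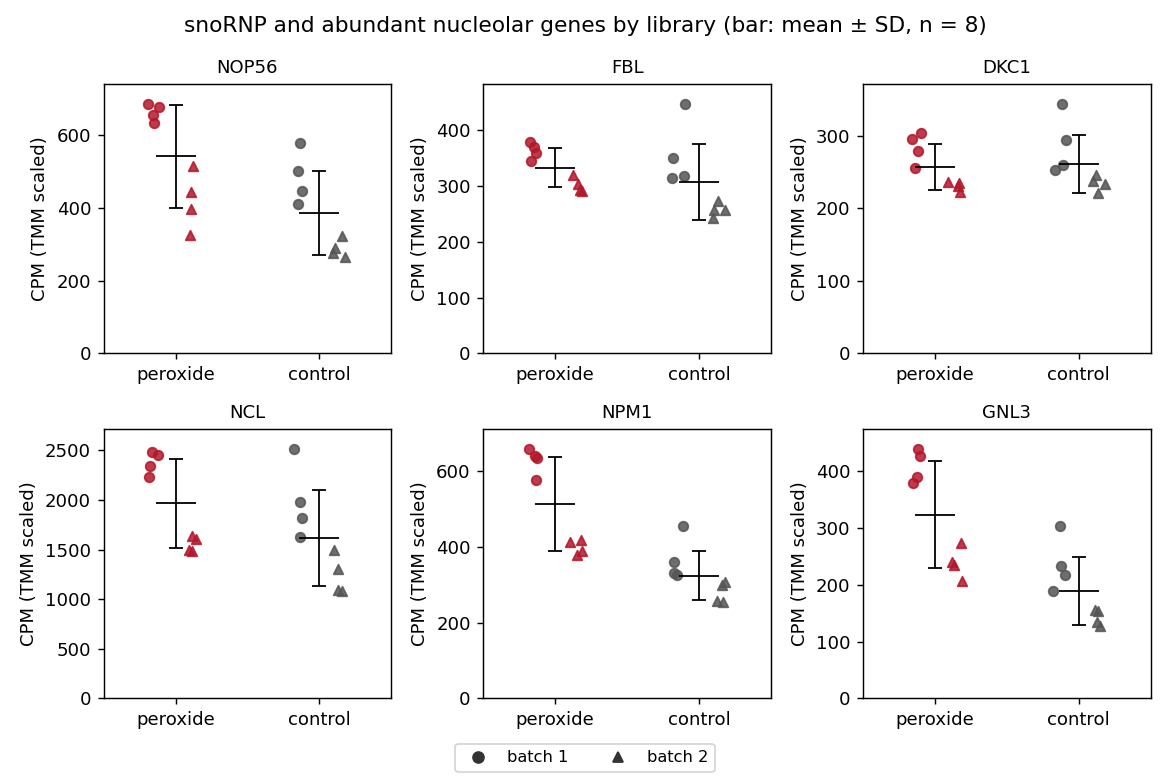
CPM with TMM scaling of NOP56, FBL, DKC1, NCL, NPM1 and GNL3 in each library, peroxide left of control, with circles for batch 1, triangles for batch 2 and bars for the mean ± SD of 8 libraries. NPM1 and GNL3 are higher in peroxide libraries inside both batches, and in all 6 genes most batch 1 libraries lie above the batch 2 libraries of the same group.

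Compared per kilobase of annotated exon, NCL was the highest of the 44 at 284 CPM per kilobase in peroxide libraries and 233 in control libraries. In control libraries FBL (142), NOP10 (129), NOLC1 (110) and NPM1 (84.7) came next. In peroxide libraries these 4 genes had 153, 131, 118 and 134 CPM per kilobase. The lowest was NOP2 at 2.52 in peroxide libraries and 1.81 in control libraries. The ranges over control libraries overlapped between each pair of neighbours among the first 5 genes in this order.

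Of the 11 small subunit genes, 2 were higher (18.2%), 2 were lower (18.2%) and 7 passed in neither direction. Both shares were below those of all genes tested, at 24.1% higher and 24.3% lower. WDR43, whose product joins the processome during ribosomal RNA transcription, rose by 0.33 ± 0.08 (edgeR adjusted p = 0.00165), but did not pass at 0.20 in batch 2 alone (edgeR adjusted p = 0.0854). DDX10, the gene of a helicase of the same assembly line, rose by 0.17 ± 0.06 (edgeR adjusted p = 0.0355). That call was lost at 0.11 when libraries were scaled by total counts (edgeR adjusted p = 0.164) and at 0.12 with no filter on low counts (edgeR adjusted p = 0.299). It was also lost at 0.14 to 0.17 when control library 1, 2, 3, 4 or 7 or peroxide library 1, 3 or 4 was left out, and the change was 0.33 in batch 1 alone and 0.01 in batch 2 alone. UTP15, whose product belongs to the same early complex as those of WDR43 and UTP4, had 22.2, 27.8 and 47.6 CPM in peroxide libraries, against 30.2, 38.9 and 43.9 CPM in control libraries. The highest library of all for UTP15 was a peroxide library of batch 1, and the groups separated in batch 2 and not in batch 1, where the change of -0.17 did not pass (edgeR adjusted p = 0.379). UTP15 fell by 0.28 ± 0.10 (edgeR adjusted p = 0.0241), which no longer passed at -0.24 without control library 5 (edgeR adjusted p = 0.0502), at -0.25 without peroxide library 6 (edgeR adjusted p = 0.053) or at -0.26 without peroxide library 7 (edgeR adjusted p = 0.0509).

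NAT10, which encodes the enzyme that acetylates cytidines of the small subunit RNA, had 145, 176 and 199 CPM in peroxide libraries, against 162, 192 and 269.6 CPM in control libraries. NAT10 fell by 0.18 ± 0.06 (edgeR adjusted p = 0.0126), and in each batch its peroxide libraries all lay below the control libraries, although neither batch alone passed. UTP4, UTP14A, UTP18, UTP20, NOP14, NOC4L and RRP12 had log2 fold changes between -0.11 for UTP20 and 0.13 for UTP18. Among these, UTP18 passed at 0.14 without peroxide library 2 and at 0.15 without peroxide library 5, UTP4 at 0.14 without peroxide library 5, and NOP14 at 0.17 without control library 2. Of 39 further small subunit genes, 12 were higher and 4 were lower, with a median of 0.08. The shares over all genes tested were 24.1% higher and 24.3% lower. NOP9 fell by 0.32 ± 0.05, UTP25 rose by 0.46 ± 0.07, and RIOK2, which encodes a late-acting kinase of the small subunit, rose by 0.43 ± 0.09.

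Of the 12 large subunit genes, 3 were higher (25%), 3 were lower (25%) and 6 passed in neither direction. These shares were near the 24.1% higher and 24.3% lower of all genes tested. RRP1B, which encodes a nucleolar protein related to a yeast large subunit factor, had 142, 168 and 209 CPM in peroxide libraries, against 173, 214 and 307 CPM in control libraries. It fell by 0.39 ± 0.06 (edgeR adjusted p = 3.29e-05), with the groups apart in each batch. Its paralog RRP1 had a log2 fold change of -0.08 ± 0.07, which did not pass (edgeR adjusted p = 0.388), and the difference between the paralogs was not tested. RRS1, whose product helps load the 5S particle, had 21.97, 25.5 and 32.4 CPM in peroxide libraries, against 27.1, 29.7 and 38.7 CPM in control libraries. RRS1 fell by 0.22 ± 0.08 (edgeR adjusted p = 0.0248), and in neither batch alone did it pass.

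The PeBoW complex, made of the products of PES1, BOP1 and WDR12, is required for large subunit processing. BOP1 had 186, 210.2 and 260 CPM in peroxide libraries, against 221, 248 and 309 CPM in control libraries, and its fall of -0.22 ± 0.08 passed narrowly (edgeR adjusted p = 0.0365). The fall was seen in batch 1 and not in batch 2, and the call was lost at -0.18 to -0.21 when control library 1, 2 or 4 or peroxide library 1, 2, 3, 4 or 6 was left out. PES1 and WDR12 had log2 fold changes of -0.06 and -0.04, neither of which passed. NOP16 rose by 0.40 ± 0.07 (edgeR adjusted p = 5.1e-05) and BRIX1 by 0.31 ± 0.09 (edgeR adjusted p = 0.00493), and both encode factors of the large subunit precursor. BRIX1 did not pass at 0.20 in batch 2 alone (edgeR adjusted p = 0.107). NOP2 encodes a methyltransferase of the large subunit RNA and had 7.07, 12.04 and 15.6 CPM in peroxide libraries, against 5.51, 7.92 and 14.3 CPM in control libraries. It rose by 0.49 ± 0.12 (edgeR adjusted p = 0.00212), but did not pass at 0.44 in batch 2 alone (edgeR adjusted p = 0.0635). The groups overlapped inside both batches. In addition, 54.4% of the exon length of NOP2 overlaps other genes, so its level is uncertain. The overlap was 27.4% for NHP2, 20.0% for NOP16, 18.2% for POLR1C, 17.3% for TAF1D, 17.1% for NOP14 and 11.4% for RRS1.

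DDX18, NOC2L and NOC3L had log2 fold changes of -0.03, -0.15 and -0.17, none of which passed. NOC2L passed at -0.16 to -0.17 when control library 3, 6 or 7 or peroxide library 5 was left out, and NOC3L at -0.23 without peroxide library 1. With total counts NOC2L passed at -0.21 and NOC3L at -0.23, and with no filter at -0.20 and -0.22. NOC2L also passed at -0.27 in batch 1 alone, and NOC3L at -0.29 in batch 2 alone. Of 39 further large subunit genes, 14 were higher and 6 were lower, with a median of 0.05. The shares over all genes tested were 24.1% higher and 24.3% lower. MDN1, which encodes a very large ATPase that strips assembly factors from the particle, averaged 265 ± 36.9 CPM in peroxide libraries and 408 ± 37.6 CPM in control libraries (SD, n = 8 each) and fell by 0.63 ± 0.07. WDR74, whose product works with the same class of ATPases, rose by 0.80 ± 0.10, and RSL24D1 rose by 0.85 ± 0.10. Among 14 genes of the RNA exosome, which trims the precursor, 4 were higher and 3 were lower, against 24.1% and 24.3% of all genes tested. Of these, the nuclease gene DIS3 rose by 0.43 ± 0.07 and C1D by 0.40 ± 0.10. EXOSC3 had a fall of -0.24 ± 0.06.

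The batches differed in the level of these genes before any treatment. In untreated cells, every batch 2 library lay below every batch 1 library for 28 of the 44 genes, against 20.4% of all tested genes, and the reverse held for none, against 21.2% of all. The median log2 ratio of batch 2 over batch 1 in control libraries was -0.42 for the 44 genes and 0.02 over all tested genes. The share of reads in genes that the 44 took had a median of 0.968% in peroxide and 0.890% in control libraries of batch 1, and 0.788% in peroxide and 0.726% in control libraries of batch 2. When the batch term was dropped from the fit, 8 members were higher and 3 were lower. Calls over all genes tested dropped too, to 2534 higher and 2454 lower, against 3391 and 3419 with the term.

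Every peroxide library lay above every control library of its own batch, in both batches, for NOP56, NPM1, NOP16, POLR1C, TAF1D and GNL3 (6 of 44, or 13.6%, against 10.5% of all tested genes). Every peroxide library lay below in both batches for RRP1B, POLR1A, POLR1B and NAT10 (4 of 44, or 9.09%, against 8.74% of all). Both shares were near those of all genes. Batch 1 alone gave 13 members higher and 8 lower, where 20.4% of genes tested were higher and 17.2% lower. Batch 2 alone gave 9 higher and 5 lower, where 19.4% were higher and 19.1% lower. The sign of the change was the same in both batches for 33 members, 21 of them among the 22 that passed, and the exception among those was BOP1.

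The change differed between batches for 2 members by the interaction of batch and group, a test that 4.88% of all genes passed. BOP1 had -0.49 ± 0.09 in batch 1 and 0.05 ± 0.08 in batch 2, a difference of 0.53 ± 0.12 (batch 2 minus batch 1, edgeR adjusted p = 0.0139). TAF1D had 1.44 ± 0.12 in batch 1 and 0.85 ± 0.07 in batch 2, a difference of -0.59 ± 0.15 (edgeR adjusted p = 0.0297). The difference for TAF1D no longer passed when control library 1, 2, 4, 5 or 8 or peroxide library 1, 3, 4 or 5 was left out, at -0.47 to -0.60 (edgeR adjusted p = 0.0523 to 0.0666). The rise of TAF1D passed in each batch, whereas the fall of BOP1 passed in batch 1 alone. NOP58 and DDX10 also had larger rises in batch 1, but their differences did not pass (edgeR adjusted p = 0.0557 for NOP58 and 0.0757 for DDX10). The plot of both batches shows all 44 genes, of which 11 had opposite signs in the batches. Of the 22 that passed in the main fit, only BOP1 did.

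**Figure D4:**
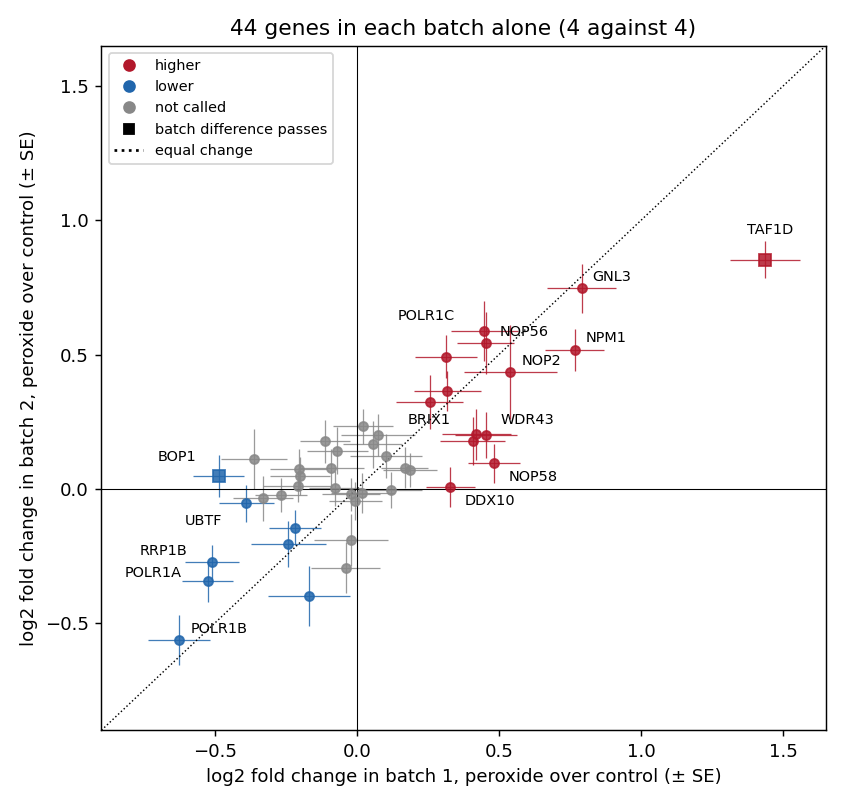
Log2 fold change, peroxide over control, in batch 2 alone against batch 1 alone for the 44 genes, with standard errors, the line of equal change dotted and squares for genes whose batch difference passed. TAF1D lies at 1.44 and 0.85, and BOP1 at -0.49 and 0.05.

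Of the 44 genes, 7 carry small nucleolar RNA (snoRNA) genes inside their own span, by the RefSeq annotation. They are TAF1D with 8 named snoRNA genes, NOP56 and GNL3 with 5 each, NOP58 with 4, NCL and WDR43 with 3 each, and DKC1 with 2. The split was made after the values had been seen. Of these 7, 6 were higher and DKC1 passed in neither direction, with a median log2 fold change of 0.33. Of the 37 other members, 8 were higher and 8 were lower, with a median of -0.01. The other protein-coding genes that hold a snoRNA gene were higher in 79 of 189 cases (41.8%) and lower in 40 (21.2%), and those without one were higher in 23.1% and lower in 25.0%. The snoRNA genes inside the members held few reads, at most 368 summed over peroxide libraries and 148 over control libraries for those in GNL3.

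Non-coding hosts were mostly higher. The 16 long non-coding host genes listed from general knowledge held 14 higher and none lower, with a median log2 fold change of 1.04, SNHG12 at 3.36 ± 0.19, SNHG7 at 1.61 ± 0.11 and SNHG3 at 1.32 ± 0.08. Over all 29 tested long non-coding genes that hold a snoRNA gene, 24 (82.8%) were higher and 2 were lower, against 25.0% higher and 22.4% lower among the 832 that hold none. The plot of the host classes sets the median of the 7 members between those of the other protein-coding hosts and of the non-coding hosts.

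**Figure D5:**
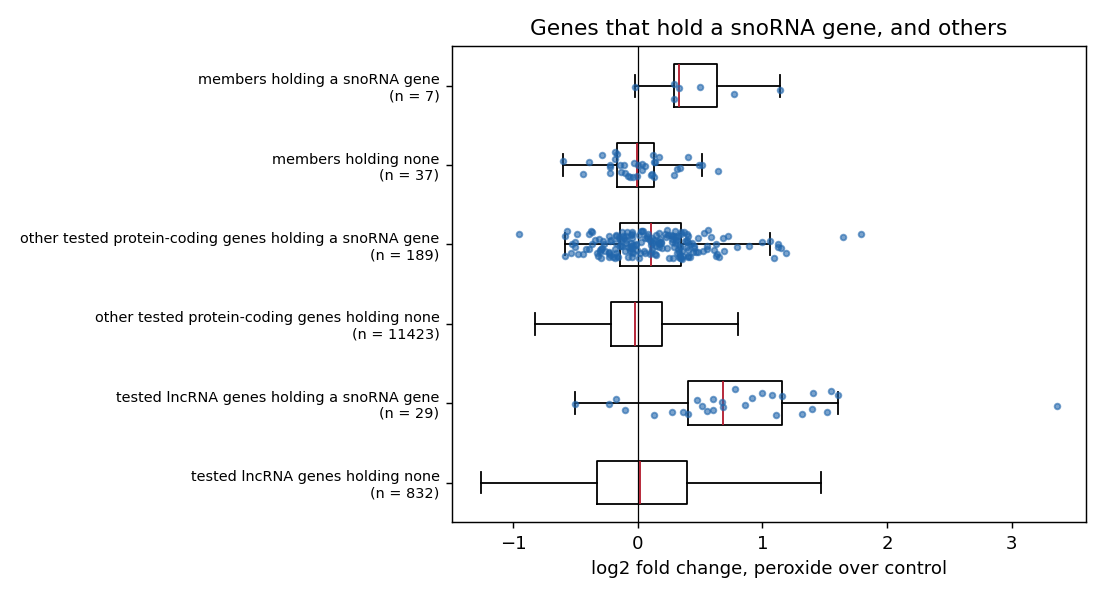
Log2 fold change, peroxide over control, by class of gene with and without a snoRNA gene inside its span, with boxes from the lower to the upper quartile, the median in red and points for single genes in the smaller classes (genes beyond the whiskers are not drawn in the classes without points). The members holding a snoRNA gene have a median of 0.33, the other protein-coding hosts 0.11 and the long non-coding hosts 0.68, while the classes without one lie near 0.

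Among other genes listed from general knowledge were 9 of the MYC network. MYC averaged 167 ± 24.7 CPM in peroxide libraries and 273 ± 73.6 CPM in control libraries (SD, n = 8 each) and fell by 0.68 ± 0.10 (edgeR adjusted p = 1.1e-05). MXD1, which encodes a protein that competes with MYC for MAX, averaged 75.3 ± 13.6 CPM in peroxide libraries and 11.4 ± 1.98 CPM in control libraries and rose by 2.698 ± 0.12. MGA, the gene of another MAX partner, fell by 0.93 ± 0.07. Of the 9 genes of this network, 3 were higher, 3 were lower and 3 passed in neither direction. So few genes do not set the network apart from the 24.1% higher and 24.3% lower of all genes tested. A list named for nucleolar stress and the 5S particle held RPL5, RPL11, MDM2, HEXIM1, CDKN1A, BBC3 and PHLDA3. Of these 7 genes, 5 were higher and none was lower, against 24.1% and 24.3% of all genes tested. The list is small and was chosen with earlier results known, and a nucleolar stress response was not tested. HEXIM1 rose by 2.85 ± 0.09. RPL5 and RPL11 encode the ribosomal proteins of the 5S particle that bind MDM2, and rose by 0.37 and 0.46. Both have processed copies in the genome, which makes their counts uncertain.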

How the data were processed

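Messenger RNA was measured by RNA-seq in 16 libraries of Jurkat E6-1 cells. Per the labels' protocols and the tables themselves, the authors deposited raw read counts, as whole numbers for each gene in 1 table per library. The submitters' processing notes name STAR 2.7.1a, HTSeq 0.6.1 and the hg19 build. The counting mode, annotation and strand setting are unknown here, so overlapping and antisense genes cannot be separated by their reads. The 5 rows that name no gene held 43.5% to 57.6% of counted reads and were left out. Gene symbols matched 60402 of 60662 identifiers (99.6%).

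The analysis used R 4.3.3. Genes were kept with filterByExpr by group, which left 14092 genes with 99.6% of the reads in genes. The test was edgeR 4.0.16 with TMM factors (quasi-likelihood, batch and group as terms, Benjamini-Hochberg over all tested genes, called at an adjusted p under 0.05, two-sided). Standard errors were taken as the absolute log2 fold change over the root of the F statistic. Levels are CPM with TMM scaling. Batch differences were tested as the interaction of batch and group. The test was first checked on simulated counts that held no batch effect, so that check does not cover the difference between the batches seen here. Exon lengths and overlaps came from GENCODE release 29, and snoRNA genes and promoters from RefSeq, GRCh38.p14. No library pair of a group agreed within sampling noise. Alternatives were DESeq2 1.42.0, limma-voom (limma 3.58.1), RLE and total-count scaling, no filter, no batch term, a replicate block, each batch alone and each library left out; leaving out the 2 libraries with the most reads not aligned uniquely was chosen after seeing the data.

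The 44 genes and the other lists were chosen with earlier results of these data known. Full values are given for the 6 largest falls and 6 largest rises among members called with the same sign in both batches, the 6 Pol I genes, NOP56, FBL, NCL, NPM1, DKC1 and members whose batch difference passed, and up to 3 genes of each other list with the smallest p, plus MYC. A few genes of the other lists are not reported here. The precision of each value is limited by its reads and by the spread over 8 libraries.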

Additional observations from a re-analysis of the deposited data

Results flagged for a closer look

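RRN3, the gene of the factor that links Pol I to its promoter, had 100.1 CPM in peroxide library 1, against 82.8 CPM in the next of the 8 peroxide libraries. LYAR, which encodes a nucleolar zinc finger protein, had 132 CPM in control library 2, against 98.9 CPM in the next control library. Each stood apart by Dixon's test among 88 groups of 8 libraries, and chance flags about 1 in 20 groups. The change after peroxide differed between batches for BOP1 by 0.53 and for TAF1D by -0.59 on the log2 scale (batch 2 minus batch 1), which passed the test of the interaction in edgeR.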

How the results depend on the processing

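With no batch term, 8 members were higher and 3 lower, against 14 and 8 with it. Over all genes, 2534 were then higher and 2454 lower, against 3391 and 3419 with it. In batch 2 alone, with fewer libraries, 9 members were higher and 5 lower, and over all genes 2800 were higher and 2752 lower. Without a filter on low counts, 5150 genes in all were called higher, against 3391. Leaving out 1 library at a time gave 13 to 16 members higher, 6 to 10 lower, 3189 to 3438 genes higher, 3221 to 3604 genes lower, and 1 to 4 members with a batch difference, which were 3 with no filter, with DESeq2 and with limma-voom. BOP1 turned from a fall to 0.048 in batch 2 alone. Total counts gave 13 members higher and 11 lower. DESeq2, limma-voom and RLE factors each gave 14 and 8.

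Labels number the libraries 1 to 8 in each group, with 1 to 4 in batch 1. With the number as a block, 13 members were higher and 6 lower, and 3313 genes were higher and 3374 lower. Beyond batch, the deviations of same-numbered libraries correlated at -0.15 to 0.17, and 3 of 8 libraries correlated best with their own number, so the numbers were not taken as pairs.

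Across 26 settings and 44 members, 1066 of 1144 values kept their side of the threshold with no turn of a called value (38 changes of sign were in values called neither there nor in the main result), 49 lost the call, 28 gained one and 1 reversed. NOP56, NPM1, RRP1B, POLR1A, POLR1B, POLR1C, TAF1D, LYAR and GNL3 passed under all 26. NOP2 and RRS1 had the lowest levels and thus the least depth behind them.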
